A study of Mus musculus with 5 samples.

Results

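Heat shock proteins, chaperones and their folding partners were compared between retina of Rb-mutant and wild-type mice on dual-colour arrays read with a GenePix scanner. Members were the spots with a single gene symbol that begins with Hsp (followed by a digit, a, b, d, e or h), Dnaj, Cct (followed by 2 to 8), Tcp1, Fkbp, Ppi (followed by a to h), Pdia, Calr, Canx, Bag or Ahsa. This rule took 81 of 17328 spots, for 50 genes, and used no measured value. Of these, 67 spots for 45 genes carried a ratio on at least 4 of the 5 arrays and were tested, among 10036 tested spots in all. The study comprised 5 arrays with the same labels, each with total RNA of wild-type mice in channel 1 and of mutant mice, given as Rb-, in channel 2, and they are numbered here in order of deposition. The series title names retinal explants of an Rb knockout. Rb is the retinoblastoma tumour suppressor, which restrains entry into S phase. The sources used here give no strain, age, allele, culture time or number of animals behind each RNA. Nothing in the labels separates arrays by animal or culture, so a p-value reflects array-to-array spread alone, and that spread may be technical.

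Every value is a log2 ratio of the channels as deposited, after subtraction of the array median. The labels form ratios as 635 over 532 nm but name the dye of neither RNA, and no dyes are marked as swapped. Positive and negative ratios are therefore not assigned to mutant or wild type. A ratio holds no expression level, so neither the abundance of a chaperone nor the presence of retinal cell types could be read from these data. In RNA of whole tissue, fewer cells of a type and less RNA per cell cannot be told apart.

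Chaperones bind unfolded or partly folded proteins and keep them from aggregating. HSP70 proteins work in cycles of ATP binding that J-domain proteins (HSP40) start and nucleotide exchange factors end, HSP90 takes over clients such as kinases and receptors, and the ring-shaped chaperonins enclose actin, tubulin and other proteins. The endoplasmic reticulum has its own HSP70, HSP90, lectin chaperones and disulfide isomerases, which photoreceptors use heavily because they make large amounts of membrane protein for the outer segment. Cytosolic stress acts on these genes through HSF1 at heat shock elements, and stress of the endoplasmic reticulum acts through ATF6 and XBP1 at ER stress elements.

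Promoter windows of RefSeq (build GRCm38.p6, 250 bases before to 50 after the start) were found for 43 of the 50 genes, 54 windows in all. They are shown because the known stress pathways act through these elements. A heat shock element was searched on both strands as GAA, 2 bases, TTC, 2 bases and GAA, which read from the other strand gives the alternate frame. It occurred in 198 of 32851 windows of all genes (0.603%) and in 6 of the 54 member windows (11.1%). These belong to Hspd1, Hspe1, Dnajb6 and Hsph1. The Dnajb6 windows overlap and hold the same match, as do those of Hsph1, so some bases are counted more than once. Overlapping windows were not merged in either share. The ER stress element was searched on both strands as CCAAT, 9 bases and CCACG, and so holds a CCAAT box. It occurred in 39 windows of all genes (0.119%) and in 5 member windows (9.26%), those of Hspa5, Hsp90b1, Canx, Pdia6 and Dnajc3. A match is a description of letters and not a measured binding site, and lack of a match does not place a gene outside these pathways. No window was found for Hsp90aa1, Hspa8, Hspa9, Hspa13, Dnajc11, Dnajc30 or Ppie. The search for the ER stress element was added after the ratios had been seen. The windows of Hspd1 (chr1:55087883-55088182, minus strand), Hspa5 (chr2:34771840-34772139, plus strand) and Hsp90b1 (chr10:86705395-86705694, minus strand) are given with the matches in capitals, each read 5′ to 3′ on the strand of the gene. In Hspd1 2 matches overlap, and Hspe1, transcribed the other way, shares this stretch. Hsp90b1 holds 2 matches, 1 on each strand. The list goes on with the matches alone of Dnajb6, Hsph1, Canx, Pdia6 and Dnajc3.
Hspd1: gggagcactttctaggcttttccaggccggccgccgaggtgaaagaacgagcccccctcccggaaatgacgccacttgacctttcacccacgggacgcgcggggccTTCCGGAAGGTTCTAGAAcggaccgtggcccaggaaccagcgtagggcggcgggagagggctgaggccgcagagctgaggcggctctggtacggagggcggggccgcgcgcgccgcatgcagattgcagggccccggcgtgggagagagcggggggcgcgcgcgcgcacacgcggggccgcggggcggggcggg
Hspa5: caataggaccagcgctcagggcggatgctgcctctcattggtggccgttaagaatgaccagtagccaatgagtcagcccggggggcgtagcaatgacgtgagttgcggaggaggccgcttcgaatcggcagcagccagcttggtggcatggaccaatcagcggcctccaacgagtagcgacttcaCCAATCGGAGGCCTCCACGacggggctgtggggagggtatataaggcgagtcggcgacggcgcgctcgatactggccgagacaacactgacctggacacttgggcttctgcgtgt
Hsp90b1: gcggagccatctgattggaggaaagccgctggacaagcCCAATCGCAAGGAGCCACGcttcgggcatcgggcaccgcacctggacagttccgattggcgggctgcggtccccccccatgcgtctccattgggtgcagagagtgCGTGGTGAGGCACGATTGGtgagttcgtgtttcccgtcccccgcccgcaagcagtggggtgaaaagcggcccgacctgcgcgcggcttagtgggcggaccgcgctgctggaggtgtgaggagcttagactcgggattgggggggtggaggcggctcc
Dnajb6: GAATCTTCCGGAA
Hsph1: TTCTGGAAAGTTC
Canx: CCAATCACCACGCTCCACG
Pdia6: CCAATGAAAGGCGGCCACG
Dnajc3: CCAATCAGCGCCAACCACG

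The design asks which chaperones change when Rb is lost from the retina, and no member passed the test. With limma's moderated test against a ratio of 0, none of the 67 probes had an adjusted p under 0.05, where 0% of all 10036 tested probes did. Adjusted p-values of the members ran from 0.411 to 0.998. At an unadjusted p under 0.05 there were 2 member probes, 1 of Dnajc7 and 1 of Hspa9, both positive. That is 2.99% of members, against 3.35% positive among the 5822 tested probes with a single symbol, hereafter the named probes. On the negative side it was 0 of 67 members against 6.18% of named probes. Member means were positive for 30 probes and negative for 37, with a median of -0.11. Named probes had a median of -0.22, and 34.2% of them were positive against 44.8% of members. Of the 52 members measured on all 5 arrays, 2 were positive on every array (3.85%, against 3.39% of named probes), both of them Hspa9. Another 3 were negative on every array, Hspa4l, Cct2 and Bag6 (5.77%, against 12.8% of named probes). For probes measured on all 5 arrays the median SD was 0.60 for members and 0.61 for named probes, and 30.8% of members and 22.4% of named probes had an SD over 1. Over all tested probes the median SD was 0.82 for members and 0.72 for named probes.

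**Figure D1:**
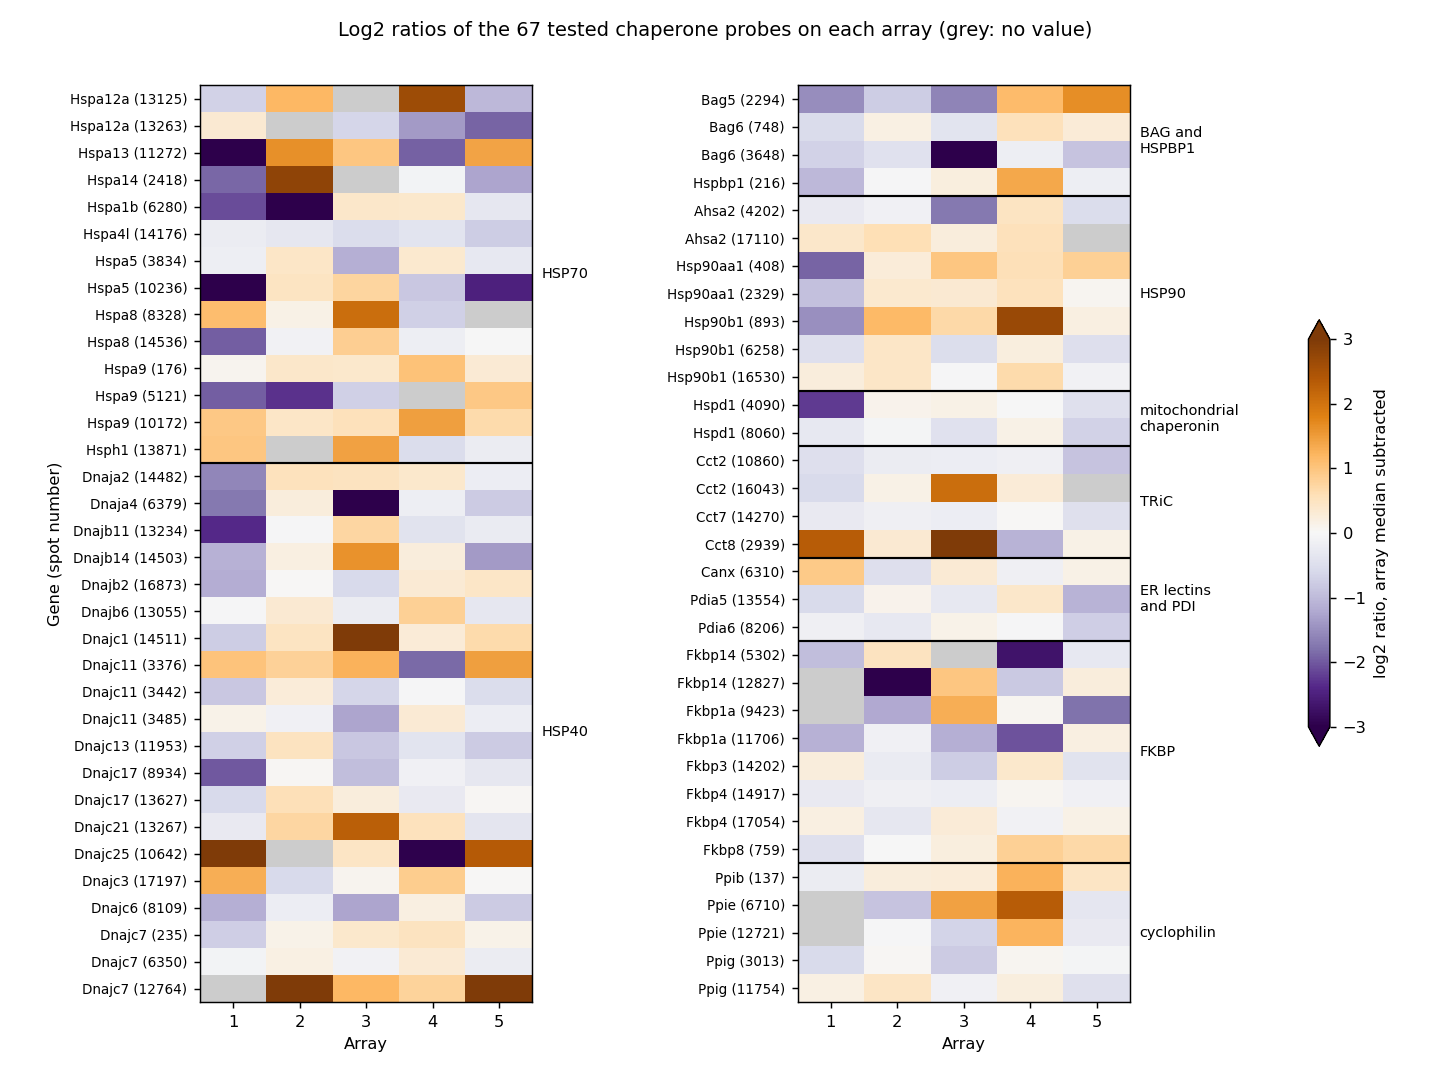
Log2 ratio, array median subtracted, of each of the 67 tested chaperone probes (rows, gene and spot number, in families) on arrays 1 to 5 (columns). Colours stop at -3 and 3, so more extreme values share the end colour, and grey cells hold no value. Most rows change colour between arrays, while Hspa9 (spots 176 and 10172) is positive and Hspa4l (spot 14176) negative on all 5.

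As a group, the chaperones had no direction shared by all arrays. The median of the members minus that of the named probes was -0.19, 0.13, 0.53, 0.14 and 0.00 in array order, averaging 0.12 ± 0.27 (SD, n = 5). Of the members measured on each array, 27 of 62, 38 of 64, 43 of 64, 36 of 66 and 32 of 64 lay above the named median. Array 3 had the highest share and array 1 the lowest. Without array 3 the mean was 0.02, and without array 1 it was 0.19.

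Arrays 1 and 3 stood apart in markers of cell types. The 27 tested probes of 16 rod genes, of 20 listed, had a median relative to the named probes of -3.39, 0.07, -3.33, -0.43 and 0.18 on arrays 1 to 5. For 15 probes of 13 genes of dividing progenitors, of 17 listed, it was 2.25, -0.08, 2.71, 0.78 and 0.37. The chaperone median lay at most 0.53 from the named probes on any array, on opposite sides of them on arrays 1 and 3. With both arrays left out the chaperone median was 0.08 relative to the named probes, and 1 probe had an unadjusted p under 0.05 (1.67%, against 6.6% of named probes). How far single chaperone ratios follow these marker ratios was not tested. Arrays also differed in spread, with a scaled median absolute deviation of named probes of 0.95, 0.50, 1.00, 0.62 and 0.67, so an equal log2 size can stand for an unequal rank on another array.

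**Figure D2:**
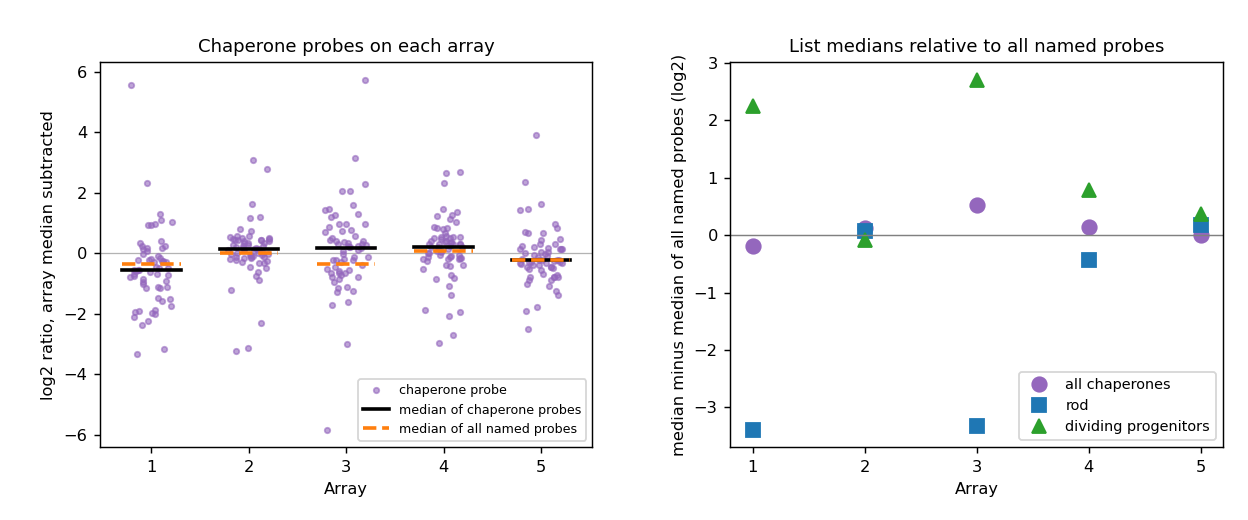
Left, log2 ratio (array median subtracted) of each tested chaperone probe on arrays 1 to 5, with the median of chaperone probes (solid bar) and of all named probes (dashed bar). Right, median of the chaperone, rod and dividing progenitor probes minus that of all named probes, in log2. Rod and progenitor lists lie at -3.39 and 2.25 on array 1 and at -3.33 and 2.71 on array 3, where the chaperones lie at -0.19 and 0.53.

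Among HSP70 proteins, Hspa9 had positive ratios on all 5 arrays by 2 of its 3 probes. Hspa9 is mortalin, the HSP70 of mitochondria, which pulls imported proteins into the matrix. Its probe at spot 10172 read 0.95, 0.43, 0.56, 1.47 and 0.66 across arrays 1 to 5, averaging 0.81 ± 0.42 (SD, n = 5; limma unadjusted p = 0.0199, adjusted p = 0.432). The probe at spot 176 read 0.07, 0.41, 0.37, 1.03 and 0.32, averaging 0.44 ± 0.36 (SD, n = 5; limma adjusted p = 0.48). Both were highest on array 4 and neither crossed 0. The mean at spot 176 was -0.02 when arrays were not centred, and that at spot 10172 was then 0.36. A further Hspa9 probe, spot 5121, went the other way, with -1.96, -2.30, -0.71 and 0.96 on arrays 1, 2, 3 and 5.

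Hspa4l, an HSP110-like exchange factor of HSP70, had small negative ratios at its tested spot, of -0.23, -0.33, -0.54, -0.38 and -0.76, in array order. They averaged -0.45 ± 0.21 (SD, n = 5; limma adjusted p = 0.456). That mean became -0.26 with centring on named probes measured on all 5 arrays and -0.91 without centring. A further Hspa4l spot, not tested, was positive on the arrays it was measured on, with 5.08 on array 3 and 1.61 on array 5. The related Hsph1 had 0.98, 1.45, -0.53 and -0.21 on arrays 1, 3, 4 and 5, positive where rod ratios were lowest and negative on the others. Hspa8, the constitutive cytosolic HSP70, had -1.95, -0.10, 0.86, -0.17 and -0.02 on one probe (spot 14536). Its other probe (spot 8328) gave 1.10, 0.14, 2.07 and -0.71 on arrays 1 to 4. The 2 probes differed in sign on arrays 1 and 2.

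Hspa1b, a stress-inducible HSP70, read -2.09, -3.21, 0.41, 0.40 and -0.31 in array order. It was the lowest member on array 2. Hspa1b has a near-identical neighbour, Hspa1a, and the probe may not tell them apart. Hspa13, a microsomal HSP70 relative, swung from -3.15 on array 1 and -1.94 on array 4 to 1.63, 0.97 and 1.42 on arrays 2, 3 and 5. Hspa14, which works at the ribosome, had -1.88, 2.79, -0.08 and -1.26 on arrays 1, 2, 4 and 5. The 14 HSP70 probes had a median of -0.19, with 5 positive and 9 negative means, where 34.2% of named probes had a positive mean. At a limma unadjusted p under 0.05 there was 1 positive probe, where 3.35% of named probes were positive.

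J-domain proteins, which bring clients to HSP70 and start its ATP hydrolysis, were the largest family, with 20 tested probes of 15 genes. Their median was -0.04, with 9 positive and 11 negative means, where 34.2% of named probes had a positive mean. Dnajc7, a cochaperone with tetratricopeptide repeats that binds both HSP70 and HSP90, held the member with the smallest p. Spot 12764 read 3.10, 1.19, 0.79 and 3.91 across arrays 2 to 5, averaging 2.25 ± 1.50 (SD, n = 4; limma unadjusted p = 0.0123, adjusted p = 0.411). It was positive on all 4 arrays with a value and was the highest member on arrays 2 and 5. The other Dnajc7 probes stayed near 0, with -0.73, 0.14, 0.39, 0.51 and 0.14 (spot 235) and -0.09, 0.17, -0.11, 0.32 and -0.22 (spot 6350) on arrays 1 to 5.

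The negative J-domain probes with the smallest p were those of Dnaja4 and Dnajc6. Dnajc6, auxilin, strips clathrin from vesicles in neurons and had -1.14, -0.19, -1.25, 0.20 and -0.79 in array order, averaging -0.63 ± 0.62 (SD, n = 5; limma adjusted p = 0.453). Dnaja4 had -1.73, 0.25, -2.99, -0.17 and -0.78, averaging -1.08 ± 1.30 (SD, n = 5; limma adjusted p = 0.443). Both were lowest on arrays 1 and 3, the arrays with the low rod ratios. With those arrays left out their means were -0.26 and -0.23. A further Dnaja4 spot, not tested, differed on array 3, with -3.152, 2.415 and 0.844 on arrays 1, 3 and 4. Dnajc13, which acts in endosomal sorting, had -0.71, 0.51, -0.83, -0.39 and -0.78. Its untested spot was positive where measured, with 0.56, 1.13 and 0.89 on arrays 1 to 3. Dnajc17 had -2.02, 0.02, -0.94, -0.12 and -0.31 on one probe (spot 8934) and -0.61, 0.58, 0.24, -0.27 and 0.04 on the other (spot 13627).

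Some J-domain probes were far out on single arrays. Dnajc1, a membrane protein of the endoplasmic reticulum, had 5.73 on array 3, the highest ratio of any member there, against -0.77, 0.49, 0.29 and 0.68 on arrays 1, 2, 4 and 5. Dnajc25 had 5.56, 0.45, -2.97 and 2.36 on arrays 1, 3, 4 and 5, the highest member on array 1 and the lowest on array 4. The remaining J-domain genes had means from -0.47 for Dnajb11 to 0.59 for Dnajc21.

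The nucleotide exchange factors of the BAG family and HSPBP1 end the HSP70 cycle. Bag6, which also guards tail-anchored and misfolded membrane proteins, had -0.69, -0.44, -5.82, -0.17 and -0.87 on arrays 1 to 5 at spot 3648. Array 3 lay far below the others there and was the lowest value of any member on it. The mean was -1.60 ± 2.38 (SD, n = 5; limma adjusted p = 0.462) and -0.54 without array 3. The other Bag6 probe (spot 748) had -0.55, 0.19, -0.39, 0.55 and 0.30. Bag5 split the arrays, with -1.51, -0.76 and -1.61 on arrays 1 to 3 and 1.14 and 1.65 on arrays 4 and 5. Arrays 1 to 3 were scanned at focus position 10 and arrays 4 and 5 at 0. Its mean was -1.29 within the first group and 1.39 within the second, and the part of the scan in this was not tested. Hspbp1 had -1.02, -0.05, 0.22, 1.37 and -0.18.

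HSP90 probes lay above the named probes on 4 of 5 arrays, as the members together did. The median of the 7 probes of Hsp90aa1, Hsp90b1 and Ahsa2 was -0.12, 0.42, 0.59, 0.48 and 0.19 relative to the named probes on arrays 1 to 5. All 7 lay above the named median on array 4 and 3 of 7 on array 1. None had an unadjusted p under 0.05. Hsp90aa1, the inducible cytosolic HSP90, agreed in sign between its probes on every array, with -1.91, 0.28, 0.98, 0.57 and 0.82 (spot 408) and -0.92, 0.36, 0.34, 0.52 and 0.05 (spot 2329). It was negative on array 1 and positive on arrays 2 to 5. The means were 0.15 ± 1.18 and 0.07 ± 0.58 (SD, n = 5 each), and both turned negative on arrays 1 to 3 alone and without centring. So did the first without array 3 or array 5 and the second without array 2 or array 4.

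Hsp90b1, the HSP90 of the endoplasmic reticulum also called GRP94, was positive on arrays 2 and 4 by all 3 probes. It had -1.48, 1.15, 0.70, 2.68 and 0.19 at spot 893, the highest member on array 4. At spot 6258 it had -0.49, 0.43, -0.51, 0.21 and -0.49, and at spot 16530 it had 0.26, 0.42, -0.04, 0.68 and -0.10. Ahsa2, related to the activator of HSP90 ATPase, gave 0.42, 0.59, 0.25 and 0.55 on arrays 1 to 4 at spot 17110, averaging 0.45 ± 0.16 (SD, n = 4; limma adjusted p = 0.503), which became 0.06 without centring. That probe had the smallest spread of any member measured on 4 arrays. Its other probe (spot 4202) was negative on arrays 1, 2, 3 and 5 with -0.26, -0.13, -1.71 and -0.52, and had 0.49 on array 4.

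The chaperonins were measured by few probes. TRiC, the cytosolic ring that folds actin and tubulin, was represented by 3 of its subunits. Cct7 had -0.27, -0.15, -0.21, 0.02 and -0.45 on arrays 1 to 5, and Cct2 had -0.49, -0.23, -0.21, -0.15 and -0.87 at spot 10860. These belong to the tightest members, with an SD of 0.17 and 0.30. The Cct2 mean of -0.39 (limma adjusted p = 0.504) became -0.20 with centring on named probes measured on all 5 arrays and -0.85 without centring. That of Cct7 went from -0.21 to -0.02 and -0.67. Cct8 did not share these values, with 2.34, 0.35, 3.14, -1.08 and 0.16. It was highest on arrays 1 and 3, the arrays with high progenitor ratios, and its mean of 0.98 ± 1.72 (SD, n = 5) became -0.19 without them. The second Cct2 probe (spot 16043) had -0.56, 0.16, 2.06 and 0.30 on arrays 1 to 4. Subunits of one ring thus had ratios of both signs on every array.

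Hspd1, the mitochondrial HSP60, had -2.24, 0.10, 0.16, 0.00 and -0.47 at spot 4090 and -0.29, -0.05, -0.43, 0.16 and -0.70 at spot 8060. The probes lay far apart on array 1 only. Hspe1, the cochaperonin HSP10 that caps the HSP60 ring and is transcribed from the same stretch of DNA, was measured on 3 arrays with 2.03, -1.56 and 1.31 on arrays 1, 2 and 4, and was not tested. The tested probes of genes with a heat shock element in the window, those of Hspd1, Dnajb6 and Hsph1, numbered 4 and lay at 0.20, 0.09, 0.32, 0.00 and -0.18 relative to the named probes on arrays 1 to 5. Dnajb6, a J-domain protein that suppresses aggregation, had -0.04, 0.33, -0.22, 0.82 and -0.33 at its tested spot. An untested Dnajb6 spot had -0.83, 2.42 and 3.63 on arrays 1, 3 and 5. Of a list of 14 genes known to be heat-inducible, 6 were tested by 10 probes, 5 with a positive and 5 with a negative mean. Their median was -0.05 and none had an unadjusted p under 0.05. Named probes had a median of -0.22, and 34.2% of them had a positive mean.

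In the endoplasmic reticulum, Hspa5 encodes BiP, the HSP70 that also senses unfolded protein. One probe (spot 3834) had -0.19, 0.43, -1.13, 0.36 and -0.29 on arrays 1 to 5, and the other (spot 10236) had -3.31, 0.49, 0.77, -0.84 and -2.50. The second was the lowest member on arrays 1 and 5, and the probes were closest on array 2, at 0.43 and 0.49. Canx, calnexin, the lectin that holds glycoproteins until they fold, had 0.93, -0.48, 0.32, -0.14 and 0.16. Pdia6 and Pdia5, disulfide isomerases, had -0.15, -0.29, 0.13, -0.04 and -0.73 and -0.58, 0.10, -0.29, 0.40 and -1.09. Both isomerases were lowest on array 5 at their tested spots. An untested Pdia6 spot had 3.15 on array 1 and -0.87 on array 3. Dnajc3, the J-domain partner of BiP also called p58IPK, had 1.30, -0.60, 0.08, 0.88 and 0.02. Dnajb11, another partner of BiP, had -2.37, -0.03, 0.75, -0.41 and -0.25. These genes crossed 0 between arrays.

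The 8 probes of the 5 genes with an ER stress element in the window lay slightly above the named probes, at 0.20, 0.42, 0.45, 0.21 and 0.02 on arrays 1 to 5. Their means split evenly, 4 positive and 4 negative, with a median of 0.00 and none at an unadjusted p under 0.05. Of 24 listed genes of the endoplasmic reticulum, 11 were tested by 15 probes, with a median relative to the named probes of 0.01, 0.33, 0.65, 0.14 and 0.12. Their means ran from -1.08 to 1.35, 7 positive and 8 negative, against a median of -0.22 and 34.2% positive over the named probes. Of 7 listed mitochondrial chaperones only Hspa9 and Hspd1 were tested, by 5 probes, 2 positive and 3 negative.

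The prolyl isomerases turn proline bonds and are the targets of immunosuppressants. Among FKBP proteins, Fkbp4, the HSP90 partner of steroid receptors also called FKBP52, had the tightest ratios of any tested member at spot 14917. They were -0.28, -0.15, -0.19, 0.07 and -0.13 on arrays 1 to 5, an SD of 0.13. Spot 17054 had 0.19, -0.32, 0.30, -0.11 and 0.15, an SD of 0.25, and shared the sign of the first probe on 1 of 5 arrays. The limma adjusted p of these probes was 0.789 and 0.944. Fkbp1a, FKBP12, the receptor of rapamycin and FK506, had -1.11, -0.14, -1.13, -2.06 and 0.21 at spot 11706, averaging -0.85 ± 0.90 (SD, n = 5; limma adjusted p = 0.441). Its other probe (spot 9423) had -1.21, 1.30, 0.06 and -1.78 on arrays 2 to 5. Fkbp8, an outer mitochondrial membrane protein, had -0.46, -0.02, 0.22, 0.84 and 0.70. Fkbp3, a nuclear member, had 0.24, -0.25, -0.77, 0.38 and -0.40. Fkbp14 had negative means on both probes, -0.86 ± 1.35 and -0.68 ± 1.78 (SD, n = 4 each), with a sign that differed between them on 2 of the 3 arrays they share. Of the 8 FKBP probes 2 had a positive and 6 a negative mean, where 34.2% of named probes had a positive mean.

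Cyclophilins were positive on array 4 in particular. Their median relative to the named probes was 1.15 there, against -0.06 to 0.22 on the other arrays. Ppib, cyclophilin B of the endoplasmic reticulum, had -0.23, 0.24, 0.28, 1.26 and 0.47, averaging 0.40 ± 0.55 (SD, n = 5; limma adjusted p = 0.548). That mean was -0.06 without centring and 0.19 without array 4. Ppie, a cyclophilin of the spliceosome, had -0.89, 1.44, 2.33 and -0.35 (spot 6710) and -0.05, -0.66, 1.23 and -0.28 (spot 12721) on arrays 2 to 5. Ppig, which binds splicing factors, stayed within 0.79 of 0 on its tested probes. The values were -0.57, 0.03, -0.79, 0.07 and -0.05 (spot 3013) and 0.18, 0.45, -0.12, 0.22 and -0.46 (spot 11754). Its untested spot went further from 0, with 1.53, 2.35 and -0.79 on arrays 1, 3 and 4.

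**Figure D3:**
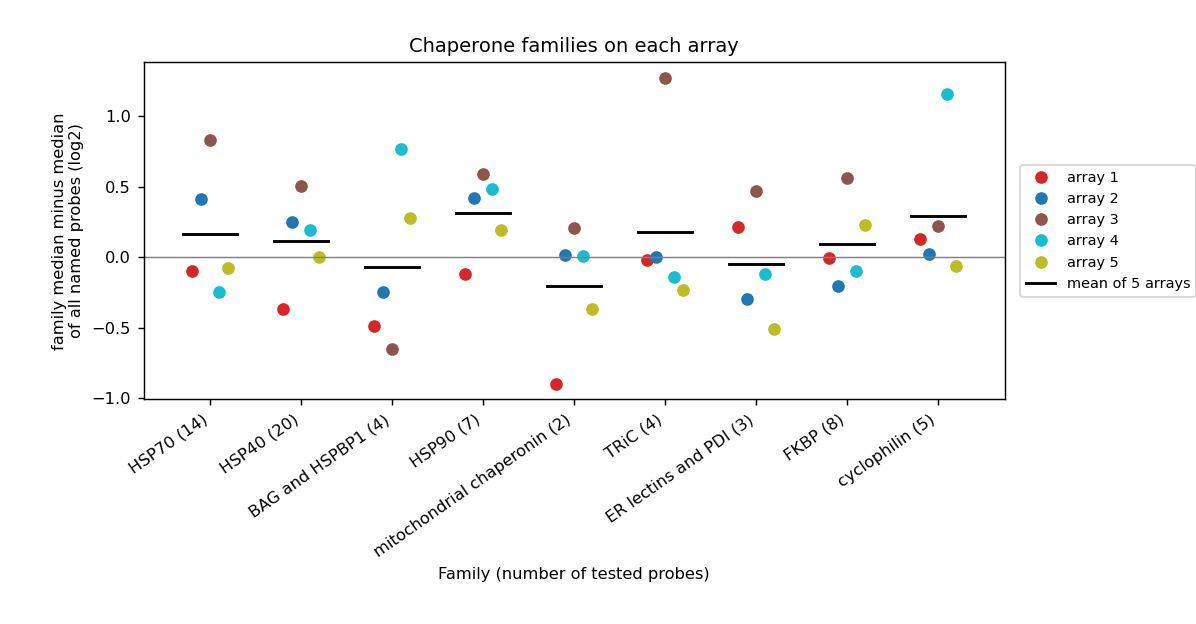
Median log2 ratio of each chaperone family minus that of all named probes, on arrays 1 to 5 (points) with the mean of the 5 arrays (bar) and the number of tested probes in parentheses. The points of every family lie on both sides of 0, and HSP90, HSP40 and cyclophilins have 4 of 5 above it.

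Repeat probes of a gene often disagreed. There were 18 genes with 2 or more tested probes, giving 26 pairs, and the means had the same sign in 13 pairs (50%), against 58.1% of 1463 pairs over all named genes. The difference between the means of a pair had a median of 0.72 for chaperones and 0.55 for all named genes. Array by array, 60 of 117 shared values (51.3%) had the same sign in both probes, against 55.9% of 6557 over all named genes. Hsp90aa1 and the Hspa9 pair at spots 176 and 10172 had the same sign on all 5 arrays. The widest gap was in Dnajc7, at 2.23 between spots 6350 and 12764. The sequences of the probes were not used here, so which of them measures its gene alone is not known.

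**Figure D4:**
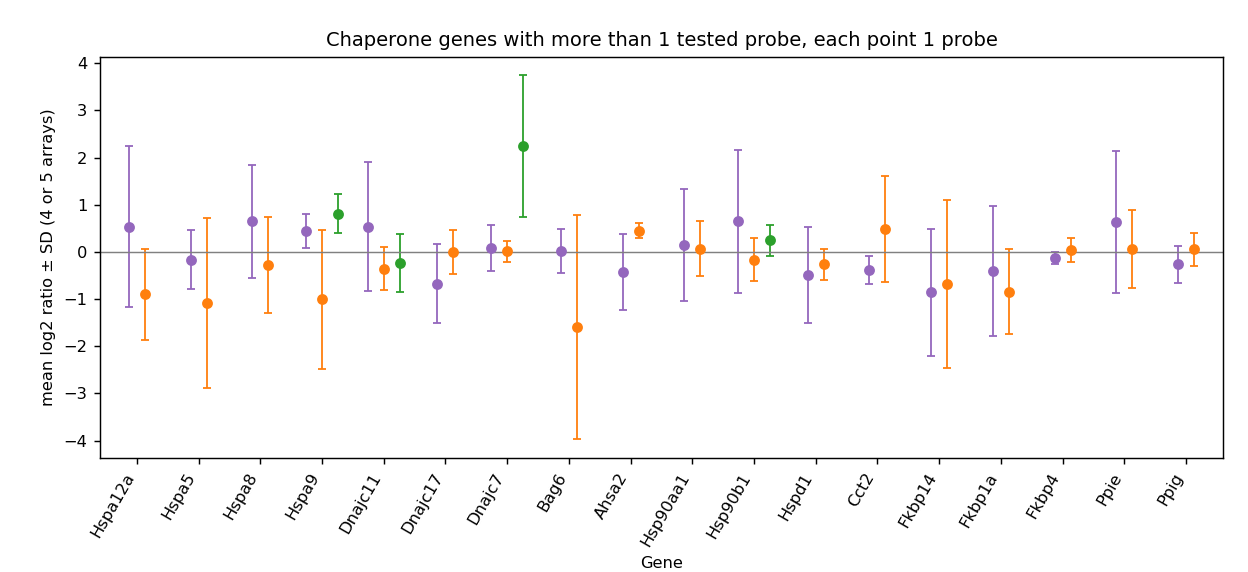
Mean log2 ratio ± SD over the 4 or 5 arrays with a value, for each tested probe of the 18 chaperone genes with more than 1 tested probe; colours only separate probes of a gene. Dnajc7 and Bag6 each have a probe far from the others, at 2.25 and -1.60, and the bars of most probes cross 0.

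Measurement on few arrays limited the rest. Of the 81 spots 52 had a value on all 5 arrays, 15 on 4, 10 on 3, 2 on 2, 1 on 1 and 1 on none. At least 4 arrays were reached by 82.7% of members and 75.4% of all 7722 single-symbol spots. Probes on 4 arrays were less repeatable than those on 5, with a median SD of 1.37 against 0.60, and 1.32 against 0.61 over the named probes. Bag1, Dnajc8, Dnajc30, Hspe1 and Ppia had no tested spot. Ppia, the abundant cyclophilin A, had -3.04, -1.50 and -0.49 on arrays 3 to 5. Bag1 had 0.27, 0.20 and 0.70 on arrays 1 to 3, Dnajc8 had -0.86, 0.18 and 0.30 on arrays 2, 3 and 5, and Dnajc30 had no value. Some untested spots had large ratios. A further Hspa4l spot had 5.08 and 1.61 on arrays 3 and 5, and a further Hspa12a spot had 2.46, 3.99 and 3.02 on arrays 2 to 4. The tested Hspa12a probes had means of 0.53 and -0.90. Not analysed here were Hsp90ab1, Hspa1a, Hspb1, Dnajb1, Dnaja1, Dnajc5, Bag3, Ahsa1, Tcp1, Ppif, Pdia3, Pdia4 and Calr.

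Other genes of the chaperone system lay on the negative side, as named probes did. Of 79 listed genes outside the naming rule, 35 were tested by 41 probes, 9 with a positive and 32 with a negative mean. None passed. At an unadjusted p under 0.05 there was 1 on the positive and 3 on the negative side, where named probes had 3.35% and 6.18%, so these counts are near the background. The median was -0.23 against -0.22 for named probes. Those 4 were Pfdn5, Pfdn6, Eif2ak3 and Lonp1. Pfdn5 and Pfdn6 are subunits of prefoldin, which hands actin and tubulin to TRiC. Pfdn5 had 5.08, 3.20, 1.08 and 2.38 on arrays 1 to 4, and Pfdn6 had -0.64, -0.99, -0.48, -0.34 and -0.86 on arrays 1 to 5 (limma adjusted p = 0.409 and 0.432). Eif2ak3, PERK, the stress kinase of the endoplasmic reticulum, had -1.42, -0.20, -0.94 and -0.91 on arrays 1, 3, 4 and 5 on one probe, and a mean of 0.22 on the other. Lonp1, the mitochondrial Lon protease, had 0.80, -1.08, -1.23, -2.06 and -3.18.

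Aipl1, chosen after its values were seen, is the cochaperone of photoreceptors that folds the phosphodiesterase of rods and cones with HSP90. It had -3.25, -0.12, -3.67, -0.18 and 0.14 in array order, averaging -1.42 ± 1.88 (SD, n = 5; limma adjusted p = 0.452). Its low values fell on arrays 1 and 3, where the rod genes were lowest, while the HSP90 probes lay at -0.12 and 0.59 relative to the named probes on those arrays. Cryab, the small heat shock protein alpha-B crystallin, had -0.96, 0.64, -1.13, -0.40 and -0.98 and was also named after its values were seen.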

How the data were processed

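Dual-colour ratios of retina RNA were taken from 5 arrays. GenePix Pro 4.1.1.29 read the spots, per the labels, with local background subtraction, no normalization and a ratio of 635 over 532 nm. The values deposited by the authors were log2 ratios; no source states the scale, which was inferred from their range. The filter behind empty cells is not given in the sources used here. Usable ratios numbered 12444 to 13145 per array, and array medians ran from -0.76 to -0.03 before centring. A recurring value of 16.61 (a ratio of 100000 on the log2 scale) was treated as a filler and set to missing in 106 to 141 cells per array, none in a member. Each array was centred on its median. The 192 ACTB control spots then had medians of 1.09, -2.10, 0.715, -0.30 and 0.05 on arrays 1 to 5. Probes measured on at least 4 arrays, without the 192 control spots of ACTB, were tested in limma 3.58.1 (R 4.3.3) with an intercept, lmFit and eBayes, and Benjamini-Hochberg adjustment over all of them at 0.05. The fit was tested on simulated data, where recovery of changed probes was required only at a spread far below that of these arrays. That check does not show that a change would be found at the spread measured here. The number of arrays, not a depth, limits the precision.

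Gene names came from the platform annotation. All 50 member genes were found in the RefSeq table of GRCm38.p6. A single symbol was listed for 7722 spots besides ACTB, several for 353 and none for 9061. Spots with several were not named. Protein sequences were not used here. Probes named were those at an unadjusted p under 0.05, the 3 smallest p of each family, those with one sign on all 5 arrays, the extremes of each array, genes with several probes and a list of 27 known chaperones, of which 12 were tested, with the Cct subunits. The rule took 54 probes of 32 genes. Probes outside it were added for their families after their values were seen. Members, families and lists were chosen with earlier results of these data known. Lists of bipolar (2 of 7 genes tested), amacrine and horizontal (4 of 8), ganglion (4 of 8), Muller glia (5 of 7), cone (7 of 10), pigment epithelium (2 of 7), lens (1 of 9), vessel (3 of 5), microglia (1 of 5) and blood (0 of 5) cells had medians from -0.69 to 0.07 and 0 probes past the threshold. Alternatives covered centring, scaling, the filler, the filter on missing values, moderation, single arrays, the scan position and gene means.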

Additional observations from a re-analysis of the deposited data

Results flagged for a closer look

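Of 77 results checked for 1 array far from the others, 7 stood out, where 1 in 20 gives 3.85. That number takes the arrays to be equally spread and the results to be separate. Arrays 1 and 3 had the widest spread, and the medians checked came from the same probes, so 3.85 does not measure chance here. The 7 results lay on array 1 (2 results), array 3 (3) and array 4 (2). Hsp90aa1 (spot 408) read -1.91 on array 1, where its other arrays spanned 0.28 to 0.98. Hspd1 (spot 4090) had -2.24 on array 1 against -0.47 to 0.16. Bag6 (spot 3648) had -5.82 on array 3 against -0.87 to -0.17. Dnajc1 had 5.73 on array 3 against -0.77 to 0.68. Dnajc11 (spot 3376), which encodes a protein of the mitochondrial inner membrane organising system, had -1.86 on array 4 against 0.80 to 1.46. Its other probes had -0.04 (spot 3442) and 0.31 (spot 3485) on array 4. Their means were -0.36 and -0.23, against 0.54 at spot 3376. The TRiC median relative to the named probes was 1.27 on array 3 against -0.23 to 0.00, and the cyclophilin median 1.15 on array 4 against -0.06 to 0.22. The causes were not tested.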

How the results depend on the processing

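No chaperone probe passed the adjusted threshold under any of the 19 alternatives run. The count at an unadjusted p under 0.05, 2 as reported, was 11 without centring, where the median of named probes moved from -0.22 to -0.67. It was 5 with centring on named probes measured on all 5 arrays, 5 without moderation and 4 with probes on at least 2 arrays. With probes on all 5 it was 1, as it was with gene means. It was 4 for focus position 10 alone, 1 for focus position 0 alone and 1 without arrays 1 and 3. Leaving out each array gave 2 to 4. The share of members was below that of named probes (16.4% against 20.7% without centring, 7.46% against 10.8% without moderation) in every alternative except focus position 10 alone, 6.9% against 5.22%. The causes were not tested. The chaperone median relative to named probes stayed between 0.02 and 0.19. Of the 67 probe means 27 kept their sign under every alternative they could be computed in, 8 positive and 19 negative. Without centring 17 of 67 changed sign, 12 of 63 with arrays 4 and 5 alone and 12 of 60 without arrays 1 and 3. These sign counts were not made over the named probes, of which 34.2% had a positive mean as reported. They are therefore not read as a trait of the chaperones. Each ratio already sets mutant against wild-type RNA within 1 array. No further pairing of arrays was possible because the labels give 1 group without replicate numbers. Precision was limited by how few arrays there were and how widely they differed.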

Other observations

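Agreement between arrays differed between chaperones and named probes in both directions. Taken over probes, which share arrays and are no replicates, Pearson's r was lower over the chaperones in 5 of the 10 pairs of arrays and higher in 5. Over named probes it lay between -0.05 and 0.15 for all pairs but arrays 1 and 3 and arrays 2 and 4. Between arrays 1 and 3 it was 0.35 over 5285 named probes and 0.14 over 59 chaperone probes, and between arrays 2 and 4 it was 0.35 over 5224 and 0.03 over 63. Between arrays 3 and 5 it was 0.15 over 5295 named probes and 0.21 over 61 chaperone probes. Between arrays 1 and 5 it was 0.11 over 5278 and 0.32 over 59. By ranks (Spearman) the order turned between arrays 1 and 5, with 0.13 over named and 0.11 over chaperone probes. It also turned between arrays 2 and 5 (0.11 and 0.08) and between arrays 4 and 5 (0.15 and 0.18). The other pairs kept their order. The differences were not tested.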
